A study of Mus musculus with 6 samples.

Results

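The skeletal myosin heavy chain cluster is a stretch of chromosome 11, 66890000 to 67123000 (build mm9, 233 kb), that holds 5 genes in the order Myh3, Myh2, Myh1, Myh4 and Myh8. It was taken by position. Ubiquitylated histone H2B (H2Bub) was read from the libraries in 23 consecutive windows of 10 kb, of 250807 windows with reads in the genome, and in 10 windows of each 100 kb flank. Windows were assigned by their midpoint. The gene order matched that of the RefSeq gene table on build GRCm38.p6, but no mm9 annotation was at hand. Gene borders inside the cluster were therefore not drawn, and no value below belongs to a single gene.

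H2Bub is histone H2B carrying 1 ubiquitin. It is placed by the Rnf20 and Rnf40 ligases as RNA polymerase moves along a gene, and is known as a mark of transcribed gene bodies. The 5 genes encode the motor protein of the thick filament of skeletal muscle. Myh3 encodes the embryonic chain and Myh8 the perinatal chain, both of developing and regenerating muscle. Myh2, Myh1 and Myh4 encode the adult fast chains of fibre types IIa, IIx and IIb. Muscle fibres switch from the developmental to the adult chains as they mature, and the genes are known to be silent in proliferating myoblasts and to be transcribed during differentiation. RNA was not measured in these libraries, and muscle marker genes were not used to check the groups.

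The promoters of these genes show what the members share apart from their position. All 5 were found in the RefSeq promoter table (build GRCm38.p6, plus strand, 250 bases before to 50 after each gene start). The GRCm38.p6 positions cannot be set beside the mm9 positions of the reads. Myh1, Myh2, Myh4 and Myh8 share a run of 14 bases, shown in capitals in stretches of 100 bases. The run was picked as the longest one common to any 4 of the 5 promoters, so its presence in these 4 was set by the search. The run was in 4 of the 32851 promoters of the table, on either strand, and these were the 4 members. How many promoters hold a run of this length picked in another way was not counted, so the count is no test of specificity.
Myh2, chr11:67170830-67170929: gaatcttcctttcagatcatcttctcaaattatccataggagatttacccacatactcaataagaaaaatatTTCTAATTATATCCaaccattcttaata
Myh1, chr11:67199870-67199969: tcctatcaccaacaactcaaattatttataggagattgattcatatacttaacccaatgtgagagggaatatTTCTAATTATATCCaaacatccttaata
Myh4, chr11:67237582-67237681: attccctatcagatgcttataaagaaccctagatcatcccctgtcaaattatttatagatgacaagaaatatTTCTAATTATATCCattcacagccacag
Myh8, chr11:67276998-67277097: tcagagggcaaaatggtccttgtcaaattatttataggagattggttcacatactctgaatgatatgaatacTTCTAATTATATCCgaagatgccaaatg

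The promoter of Myh3, the embryonic gene at the left end of the cluster, did not hold the run. Its stretch is shown with the letters TATAAAAG in capitals, which begin 29 bases before the gene start.
Myh3, chr11:67078199-67078298: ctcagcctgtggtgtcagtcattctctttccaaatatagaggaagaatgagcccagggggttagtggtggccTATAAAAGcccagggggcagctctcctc
The MEF2 consensus, the AT-rich site of a family of muscle transcription factors, matched once in Myh1, Myh4 and Myh8 and in 3.19% of all promoters of the table. The E-box CANNTG, the site of MyoD-type factors, matched in Myh3 (1 match), Myh4 (3) and Myh8 (2) and in 72.3% of all promoters. The letters TATAAA, those of the TATA box that positions the start of transcription, matched somewhere on either strand in all 5 promoters and in 13.6% of the table. On the plus strand a match began 32, 29 and 31 bases before the gene start in Myh1, Myh3 and Myh4. The only match in Myh2 was at base +11, after the gene start, and the only one in Myh8 was on the minus strand, 96 bases before it. In Myh1, Myh4 and Myh8 a TATAAA match on the minus strand overlaps the MEF2 match. The MEF2 and E-box patterns read the same on both strands, and the MEF2 matches lie upstream of the shared run without overlapping it. These are matches of letters and not measured sites.

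The libraries came from C2C12, a mouse myoblast line (cell type label C2C12, source names C1C12). The study asks how H2Bub changes as myoblasts become myotubes. The myotube group (MT, 3 libraries) was harvested after 96 h in 2% horse serum, and the growing myoblast group (MB, 3 libraries) at about 40% confluency in 10% fetal bovine serum. No allele or drug is named in either group. In all 6 libraries chromatin was digested with micrococcal nuclease, to about 85% mononucleosomes, and precipitated with 1 H2Bub antibody clone. The labels give a different lot number for each library, but the numbers run on in sample order, so whether 6 lots were used is not known. A myotube culture may also hold unfused cells. A change in every cell and a change in some cells cannot be told apart in bulk chromatin.

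The MT libraries held 8767810, 9251714 and 14480532 reads and the MB libraries 9293327, 10500415 and 15903500. The share of reads in MB peaks was 9.42%, 6.62% and 9.20% in MT libraries, against 33.95%, 38.08% and 30.98% in MB libraries. In 10 kb windows of chromosome 11 that touch no peak and lie outside the cluster and flanks (9026 windows), MT libraries had 4.20 ± 0.0688 reads per 1000000 reads (RPM) per window and MB libraries 2.55 ± 0.301 (SD, n = 3 each). Sequence outside peaks thus had a higher RPM in MT libraries than in MB libraries. The median log2 fold change, MT over MB, was 0.78 over all 10 kb windows tested and 0.84 over those without any peak. Each change in the cluster is therefore given beside these medians, and again with background scaling, which sets the library sizes on the bulk of the windows and moves the medians to 0.08 and 0.14.

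The myosin cluster held no dense stretch of listed peaks in myotubes or in myoblasts. Its read density relative to peak-free sequence was higher in MT libraries than in MB libraries, and in both groups it was close to that of peak-free sequence. The neighbouring myoblast domain, in contrast, stood far above peak-free sequence in myoblasts. The right flank and the left flank before that domain were higher in MT libraries by this measure, as the cluster was.

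**Figure D1:**
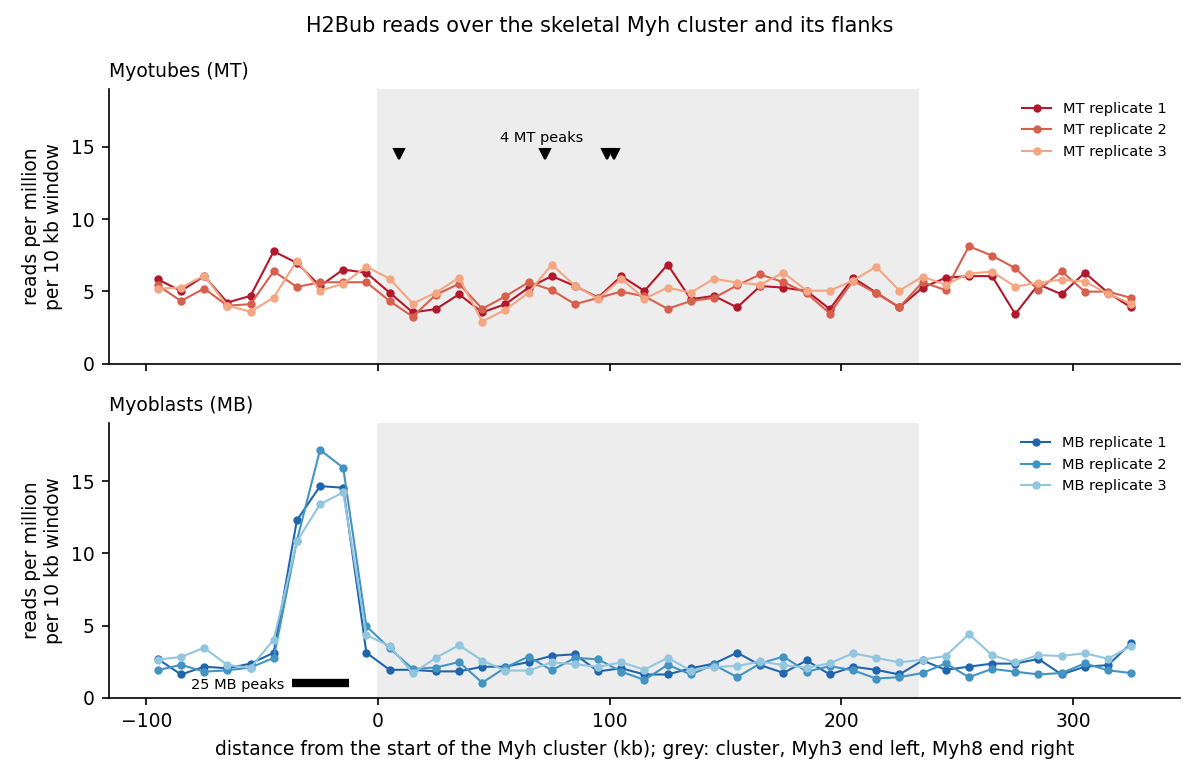
H2Bub level (RPM) in each 10 kb window, by library, against the distance from the cluster start in kb. MT libraries (top) are between 2.90 and 6.85 inside the cluster (grey) and MB libraries (bottom) between 1.05 and 3.65. Triangles mark the 4 MT peaks, and the bar marks the stretch of 25 MB peaks to the left of the cluster.

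Over the whole cluster, MT libraries 1, 2 and 3 had 984, 1009 and 1771 reads, or 112, 109 and 122 RPM. MB libraries 1, 2 and 3 had 460, 507 and 903 reads, or 49.5, 48.3 and 56.8 RPM. The groups did not overlap, and the mean was 2.22 times as high in myotubes (115 ± 6.91 RPM in MT and 51.6 ± 4.60 RPM in MB; SD, n = 3 each; exact permutation test, two-sided, p = 0.1, the smallest p that 3 against 3 libraries allow). In a fit across 10810 tiles of the cluster's length, its log2 fold change was 1.13 (SE 0.12, 95% interval 0.89 to 1.37; limma voom, adjusted p = 5.723e-10). Of all tiles, 66.0% were called higher in myotubes, and of tiles without any peak 99.2%, so the call itself is shared with nearly all peak-free sequence.

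The size of the change was above that of most tiles without MB peaks, of which 31.2% held an MT peak. The 4234 tiles without any peak had a median log2 fold change of 0.86, and of 0.18 with background scaling. The rank of the cluster among them was not taken. With background scaling the log2 fold change of the cluster was 0.42 (SE 0.10, 95% interval 0.20 to 0.63; limma voom, adjusted p = 0.001354), where 18.8% of all tiles and 26.4% of tiles without any peak were called higher. With total-read scaling, 98.5% of the 6157 tiles without MB peaks had a lower log2 fold change than the cluster's 1.13, and their median was 0.87. With background scaling 97.7% of them were below the cluster's 0.42, and their median was 0.19. On chromosome 11 alone there were 217 such tiles, of which 98.6% were lower with either scaling. The same sets had a lower MT level than the cluster in 91.2% and 87.1% of tiles, and a lower MB level in 74.6% and 59.9%. These ranks describe the libraries and carry no test.

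**Figure D2:**
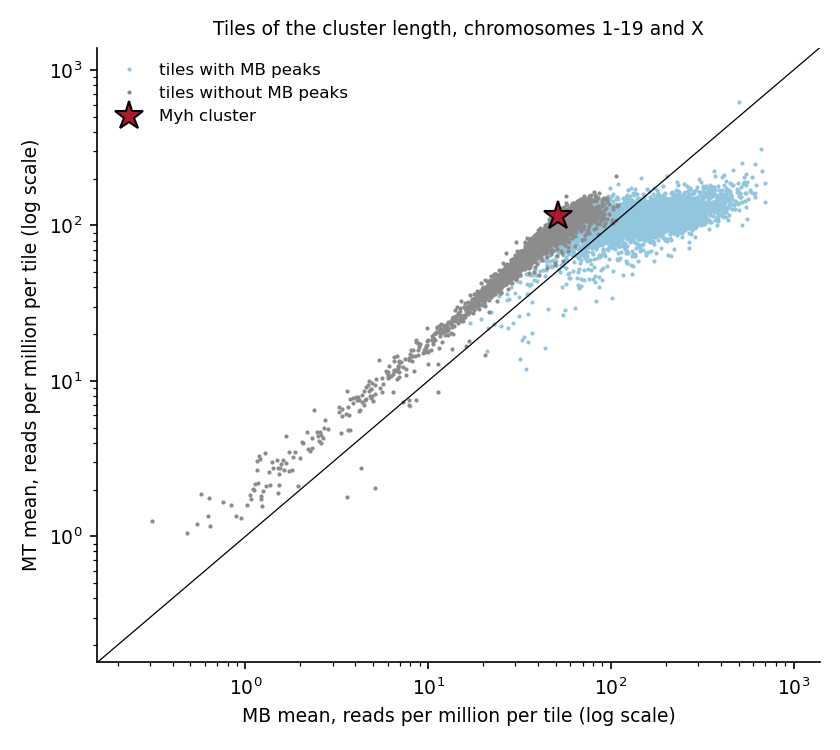
Mean RPM of each tile of the cluster's length in MT libraries (vertical, log scale) against MB libraries (horizontal, log scale), for 10810 tiles. The line marks equal values. The Myh cluster (star, 115 in MT and 51.6 in MB) lies toward the upper edge of the tiles without MB peaks in its MT level relative to its MB level. Of these tiles, 98.5% had a lower log2 fold change with total-read scaling and 91.2% a lower MT level.

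A ratio taken within each library needs no scaling between libraries. Relative to peak-free windows of chromosome 11, cluster density was 1.17, 1.10 and 1.24 in MT libraries and 0.856, 0.905 and 0.846 in MB libraries. All MT libraries were above 1 and all MB libraries below it, a difference of 0.301 (1.17 ± 0.0671 in MT and 0.869 ± 0.0314 in MB; SD, n = 3 each; exact permutation test, two-sided, p = 0.1). Against peak-free windows of the whole genome, cluster density was 1.35, 1.24 and 1.47 in MT libraries and 0.960, 1.07 and 1.05 in MB libraries, so the MT libraries were again higher (1.35 ± 0.115 in MT and 1.03 ± 0.0596 in MB; SD, n = 3 each; exact permutation test, two-sided, p = 0.1) but 2 of the 3 MB libraries were above 1. Whether the cluster lies below peak-free sequence in myoblasts thus depends on the windows it is set against. By the chromosome 11 measure the neighbouring domain had 1.43 ± 0.126 in MT and 6.06 ± 1.12 in MB (SD, n = 3 each). The right flank had 1.31 ± 0.0682 in MT and 0.948 ± 0.113 in MB, and the left flank before the domain 1.22 ± 0.124 and 1.02 ± 0.0276. Between domain and cluster the values were 1.42 ± 0.0877 in MT and 1.91 ± 0.360 in MB. A higher density in MT was thus not particular to the cluster. When windows with few reads were left out of the peak-free set, a choice made after the data were seen, the cluster had 1.13 ± 0.0647 in MT and 0.842 ± 0.0302 in MB (SD, n = 3 each).

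**Figure D3:**
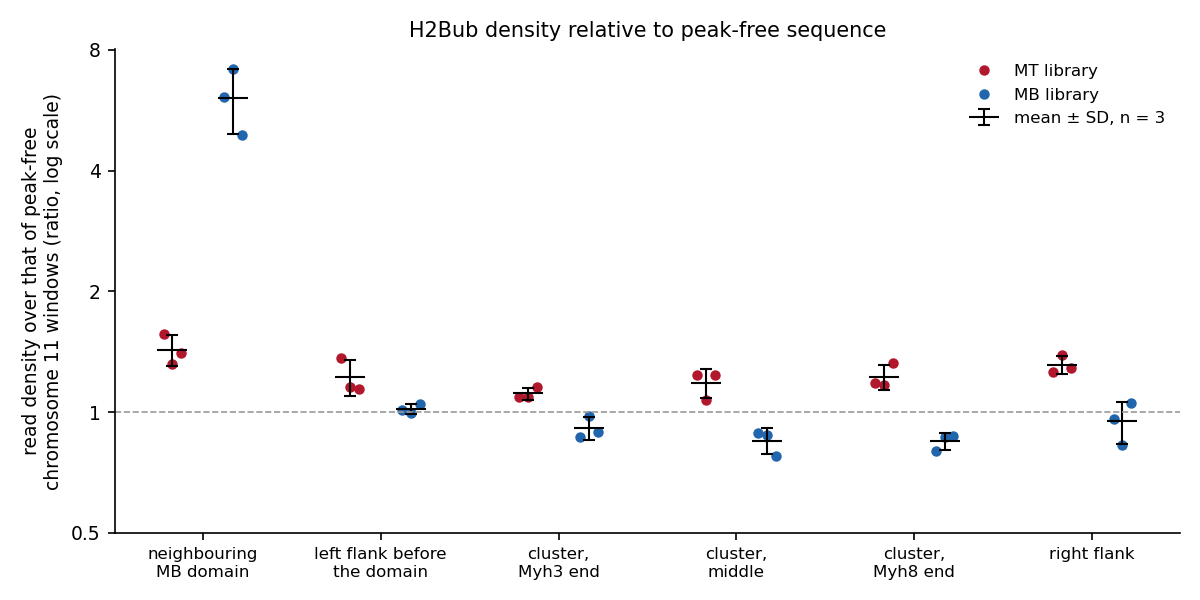
Read density relative to peak-free windows of chromosome 11 (log scale) in the neighbouring MB domain, the rest of the left flank, 3 blocks of the cluster and the right flank. Points are libraries, MT left of MB in each pair, and bars are mean ± SD (n = 3). MT points are above 1 and MB points below 1 in all 3 blocks, whereas the domain is at 1.43 in MT and 6.06 in MB.

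Window by window, the whole cluster went in the same direction. All 23 windows were called higher in myotubes with total-read scaling (limma voom, adjusted p under 0.05), against 70.9% of all windows and 82.8% of windows without any peak. Their log2 fold changes were between 0.74 and 1.52 with a median of 1.17. In each of the 23 windows every MT library lay above every MB library, as in 67.5% of all windows tested and in 78.8% of those without any peak. With background scaling all 23 log2 fold changes stayed above 0 (0.04 to 0.81, median 0.47). The share of all windows above 0 was not counted, but their median was itself above 0 (0.08, and 0.14 without any peak). In the right flank 9 of 10 windows were above 0, and in the left flank 6 of 10. With this scaling 5 cluster windows were called higher, against 2.15% of all windows and 2.42% of those without any peak. No cluster window was called lower with either scaling. With total reads 13.1% of all windows and 0.953% of those without any peak were called lower, and with background scaling 18.8% and 5.23%. The count of 5 depended on single libraries: it was 1, 6 and 1 without MT replicates 1, 2 and 3, and 2, 2 and 4 without MB replicates 1, 2 and 3.

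**Figure D4:**
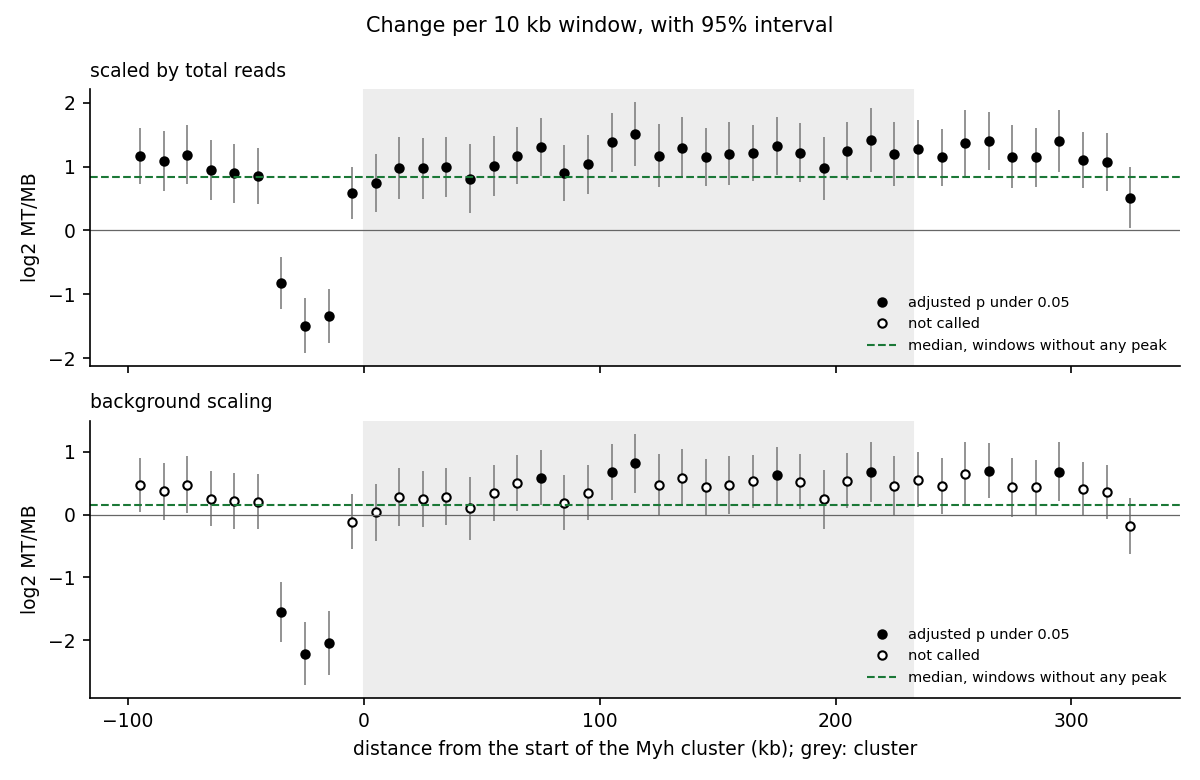
Log2 fold change, MT over MB, per 10 kb window with its 95% interval, against the distance from the cluster start in kb (grey: cluster), scaled by total reads (top) and by background windows (bottom). Filled points passed an adjusted p of 0.05 and the dashed line is the median of windows without any peak (0.84 and 0.14). Within the cluster 23 windows are filled in the top plot and 5 in the bottom plot, and 3 windows left of it lie far below 0 in both.

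The largest log2 fold change lay near the middle of the cluster, though the next highest, 1.42 and 1.38, were within its SE of 0.25. The window at 67000001 to 67010000 had 5.02, 4.65 and 4.49 RPM in MT libraries and 1.62, 1.24 and 1.95 in MB libraries. Its MB level was the lowest of the cluster, and its log2 fold change was 1.52 (SE 0.25; limma voom, adjusted p = 5.52e-06) and 0.81 with background scaling (adjusted p = 0.007424). The window just before it, 66990001 to 67000000, which holds the fourth MT peak, had 6.05, 4.98 and 5.88 RPM in MT libraries and 2.05, 1.81 and 2.45 in MB libraries (log2 fold change 1.38, SE 0.23).

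Toward the Myh8 end, the window at 67100001 to 67110000 had 4.91, 4.87 and 6.70 RPM in MT libraries and 1.94, 1.33 and 2.77 in MB libraries (log2 fold change 1.42, SE 0.25). Replicate 3 was the highest in each group, and the groups did not overlap. The highest MT level of the cluster was in the window at 66960001 to 66970000, which holds the second MT peak, with 6.05, 5.08 and 6.84 RPM in MT libraries and 2.91, 1.91 and 2.45 in MB libraries. The windows at 67090001 to 67100000 (5.80 ± 0.116 RPM in MT and 2.38 ± 0.621 in MB) and at 67060001 to 67070000 (5.72 ± 0.526 in MT and 2.28 ± 0.568 in MB; SD, n = 3 each) followed. These levels exceed one another by less than the spread of the first.

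The smallest increase lay at the Myh3 end. The window at 66890001 to 66900000, the first of the cluster, had 4.91, 4.33 and 5.88 RPM in MT libraries and 1.94, 3.43 and 3.59 in MB libraries. Its MB mean of 2.99 was the highest of the cluster, and its log2 fold change was 0.74 (SE 0.23; limma voom, adjusted p = 0.003829) and 0.04 with background scaling (adjusted p = 0.9363). It is the cluster window closest to the neighbouring myoblast domain, which ends 12.5 kb before the cluster. The next lowest log2 fold changes, 0.81 and 0.90, were in the windows at 66930001 to 66940000 (3.41 RPM in MT and 1.93 in MB) and at 66970001 to 66980000 (4.96 in MT and 2.70 in MB). Both lay within the SE of the first window, so the order of these lowest windows is not settled.

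The 3 blocks of the cluster, from the Myh3 end to the Myh8 end, differed little. The first 8 windows had 4.50, 4.63 and 4.91 RPM per 10 kb in MT libraries and 2.15, 2.24 and 2.56 in MB libraries. The next 8 windows had 5.11, 4.54 and 5.24 in MT libraries and 2.21, 2.01 and 2.23 in MB libraries. The last 7 windows had 4.88, 4.95 and 5.62 in MT libraries and 1.99, 1.99 and 2.51 in MB libraries. MT libraries exceeded MB libraries 2.02, 2.31 and 2.38 times in the 3 blocks. The Myh3 end took a smaller part of the cluster's reads in myotubes: the density of the cluster over that of its first block was 1.07, 1.01 and 1.07 in MT libraries and 0.987, 0.926 and 0.951 in MB libraries, which did not overlap (exact permutation test, two-sided, p = 0.1). For the last block the same ratio was 0.957 ± 0.0281 in MT and 1.03 ± 0.0510 in MB, and the libraries overlapped (SD, n = 3 each; exact permutation test, two-sided, p = 0.2). The 3 blocks were compared in this one way, so 3 such tests were made and none can pass 0.05.

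The flanks differed from each other. Left of the cluster lay a myoblast domain of 25 MB peaks, 66852689 to 66877470 (24.8 kb). The RefSeq table lists Sco1, a copper chaperone of cytochrome oxidase assembly, as the protein-coding gene next to Myh3, preceded by Adprm, but which gene the domain covers was not determined. It had 15.98, 13.85 and 14.72 RPM in MT libraries and 37.5, 40.7 and 35.1 in MB libraries, so it was lower in myotubes by a ratio of 0.393, opposite to the cluster. The 3 windows that hold its peaks were the only ones of the 43 in the cluster and flanks that were called lower, with either scaling. Its lowest window, 66860001 to 66870000, had a log2 fold change of -1.50 (SE 0.21; 5.35 ± 0.291 RPM in MT and 15.1 ± 1.91 in MB, SD, n = 3 each; limma voom, adjusted p = 4.383e-07). The other 7 left windows were called higher with total-read scaling, the highest being 66810001 to 66820000 (log2 fold change 1.19), and none was called with background scaling.

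To the right, where the RefSeq table lists Myh13, the extraocular myosin gene, after Myh8, the change had a size close to that of the cluster. The right flank had 5.19, 5.90 and 5.47 RPM per 10 kb in MT libraries and 2.39, 1.90 and 3.03 in MB libraries, 2.26 times as high in myotubes. Its 10 windows were all called higher with total-read scaling and 2 of them with background scaling. The highest log2 fold change was 1.40, at 67180001 to 67190000, and the lowest 0.51, at 67210001 to 67220000. The density of the cluster over that of the right flank was 0.895 ± 0.0881 in MT and 0.929 ± 0.149 in MB (SD, n = 3 each; exact permutation test, two-sided, p = 0.8). The increase was therefore not shown to differ between the cluster and its right flank. Over the left flank the ratio was 0.906 ± 0.0840 in MT and 0.368 ± 0.0351 in MB, and over both flanks 0.898 ± 0.0678 in MT and 0.523 ± 0.0141 in MB (SD, n = 3 each; exact permutation test, two-sided, p = 0.1 for each), a difference that includes the loss of the neighbouring domain. Over the part of the left flank before the domain it was 0.965 ± 0.113 in MT and 0.855 ± 0.0515 in MB, and the libraries overlapped (SD, n = 3 each; exact permutation test, two-sided, p = 0.2). The difference was thus not shown for either flank with the domain left out.

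The change was close to that of the cluster in the tile to its right, and smaller beyond that tile. The tile of the cluster's length that follows it, 67123001 to 67356000, had 124 ± 3.06 RPM in MT and 56.0 ± 13.6 in MB (SD, n = 3 each). Its log2 fold change was 1.12 (SE 0.13), against 1.13 in the cluster. With background scaling it was 0.43, against 0.42 in the cluster. The next tile had 0.96 (0.30 with background scaling), and the one after it, with 8 MB peaks, 0.46 (-0.19 with background scaling). Before the cluster, the tile that holds the myoblast domain had 0.41 (-0.29 with background scaling). The 3 tiles before that, with no MB peak, had 1.00, 0.97 and 0.93 (0.31, 0.27 and 0.25 with background scaling).

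In the authors' MT peak list 4 peaks fell inside the cluster, covering 1108 bases or 0.476% of it, against 0.395% of chromosome 11 in that list. The MB list had 0 peaks there, against 5.88% of chromosome 11 covered. Neither list had a peak in the right flank. Of the 6157 tiles without MB peaks, 31.2% held at least 1 MT peak and 3.30% held at least 4, and of all 10810 tiles 52.9% and 18.7%. Of the 4 tiles on each side of the cluster, 2 to its right also held 4 MT peaks. The lists have no scores and no replicates.

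The 4 MT peaks rested on few reads. Peak 1, at 66899178 to 66899490 (312 bp), 9.18 kb into the cluster, had 5, 1 and 5 reads in MT libraries and 0, 1 and 1 in MB libraries. Peak 2, at 66961997 to 66962206 (209 bp), had 1, 4 and 8 reads in MT libraries and 0, 0 and 2 in MB libraries. Peak 3, at 66988856 to 66989151 (295 bp), had 2, 6 and 4 reads in MT libraries and 1, 1 and 2 in MB libraries. No library was the highest in all of them. Peak 4, at 66991702 to 66991994 (292 bp), had 4, 4 and 2 reads in MT libraries and 0, 1 and 1 in MB libraries. In RPM the groups overlapped in peak 2 and not in the other 3 peaks. The share of all peak regions without overlap was not counted, so this is not read as a result about these peaks.

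**Figure D5:**
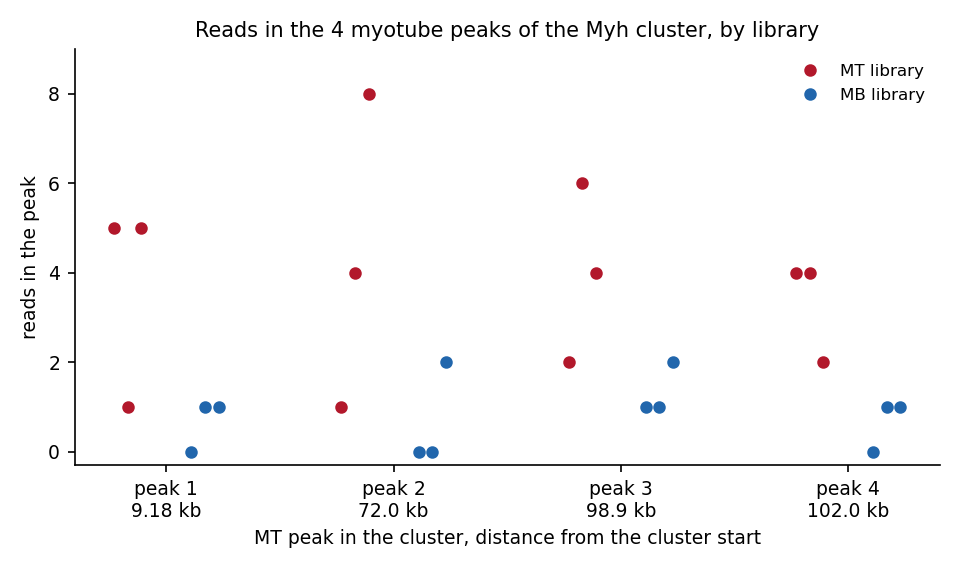
Reads in each of the 4 MT peaks of the cluster, by library, with MT libraries left of MB libraries; the horizontal axis gives each peak and its distance from the cluster start in kb. MT libraries have 1 to 8 reads per peak and MB libraries 0 to 2.

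None of the 4 peaks passed the floor on low counts. Fitted without a floor, peaks 1, 2 and 4 were called higher in myotubes (log2 fold changes 1.93, 2.44 and 1.77; SE 0.73 to 0.74; limma voom, adjusted p = 0.01756, 0.003785 and 0.02766) and peak 3 was not (1.31, adjusted p = 0.07131). Of all peak regions 2.86% were called higher in that fit, and of those in the MT list only 49.5%. The peaks were drawn on these same libraries, so their direction is not independent of the list. With background scaling peak 2 was called (1.73; limma voom, adjusted p = 0.02408) and peaks 1, 3 and 4 were not, against 1.15% of all peak regions and 19.8% of those in the MT list only. Relative to the cluster itself, density in the peaks was 2.21 ± 1.53, 3.53 ± 2.10, 2.70 ± 1.74 and 2.44 ± 1.33 times as high in MT, against 0.767 ± 0.738, 0.823 ± 1.43, 1.67 ± 0.103 and 0.819 ± 0.789 times in MB (SD, n = 3 each), and the groups overlapped in all 4.

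At a scale of 1 kb some bins of the cluster without a listed peak held more MT reads than the bins in which the peaks begin. Summed over the 3 MT libraries, the 233 bins had a median of 16 reads and at most 35, and over the 3 MB libraries a median of 8 and at most 20. The bins in which the peaks begin had 22, 17, 25 and 27 MT reads, which ranked 42, 89, 21 and 7 among the 233. The 4 peaks held 11, 13, 12 and 10 MT reads in all, near the median of 14 for the 11685 regions of the MT list only. At this depth a bin of 1 kb holds too few reads to compare the libraries of each group there.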

How the data were processed

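Per library, the authors deposited a chromosome, position and strand for every mapped read, on build mm9 per the submitters' processing notes, and per group 1 peak list. Aligner, read length, peak caller, controls and the handling of reads with several matches were not stated in the labels or files. That handling bears on the myosin genes, which are similar in sequence. No line was repeated within a library. Positions are printed as deposited.

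Reads were counted on chromosomes 1-19 and X, in 10 kb windows, in tiles of the cluster's length and in merged peaks. A window was tested when 3 libraries or more reached 10 reads, scaled to the median library, and all libraries together reached 15 (233813 windows, 10810 tiles). Groups were compared with limma 3.58.1 (voom, two-sided, Benjamini-Hochberg over all windows or tiles, threshold 0.05) in R 4.3.3, scaled by total reads or, as background scaling, by trimmed mean of M-values factors over the windows (1.25 to 1.33 in MT and 0.719 to 0.826 in MB). The fit was tested on simulated data in which few windows changed, in both directions. That test does not cover a shift of most windows, as seen here with total-read scaling. Ratios were compared with exact permutation tests. No label states that the libraries were separate cultures. The p-values therefore cover only the spread between libraries, which may be technical. Figures were drawn with matplotlib 3.10.9 in Python 3.11.15.

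Windows named are the 3 cluster windows with the highest MT level and those with the 3 highest and 3 lowest log2 fold changes, the extremes of each flank, every peak in the cluster and 3 blocks of windows. A list of muscle and myosin marker genes could not be placed without an mm9 annotation and was not analysed here. The locus, blocks and lists were chosen with earlier results of these data known.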

Additional observations from a re-analysis of the deposited data

How the results depend on the processing

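The log2 fold change of the cluster stayed positive and past the threshold under each setting tried: 1.34 with chromosome 11 scaling, 0.64 with scaling by reads outside peaks, 0.42 with background scaling, 1.15 with limma-trend, 1.13 without a floor or with shifted positions, and 1.06 to 1.21 with 1 library left out (0.37 to 0.49 with background scaling, chosen after the data were seen). The count of windows called higher moved from 23 to 5 with background scaling, 1 to 6 when a library was also left out (1 without MT replicate 1 or 3, 2 without MB replicate 1 or 2), and 7 with the replicate block added. It was 16 with scaling outside peaks and 22 to 23 without 1 library. It was 45 of 47 in 5 kb windows and 12 of 12 in 20 kb windows, where the number of windows, but not the number called, is set by their size. The replicate block alone gave a log2 fold change of 1.15 and 23 windows; same-numbered libraries did not deviate together (correlations 0, -0.169 and 0.15 over windows, and -0.068, -0.637 and 0.307 over tiles), and the numbers were treated as names. The difference in cluster-to-flank ratio was 0.375 (0.3365 to 0.4003 with 1 library left out), 0.538 against the left flank, 0.230 with flanks of 250 kb, and reversed to -0.034 against the right flank alone, which lacks the myoblast domain. Against the part of the left flank before that domain the difference was 0.1105, and the libraries overlapped. The difference from peak-free windows of chromosome 11 was 0.267 to 0.335 and that in RPM 59.2 to 65.8 with 1 library left out. Against peak-free windows of the genome the density difference was 0.326. Depth limits the 4 MT peaks, with 1 to 8 MT reads per library, of which 3 had at least the median width of their list.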
